A study of Mus musculus with 18 samples.

Results

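The Zbtb genes encode transcription factors that carry a BTB (POZ) domain near one end and DNA-binding zinc fingers near the other. They were taken as every row of the deposited expression table whose symbol starts with Zbtb and a digit, which gave 38 of 12960 genes. Of these, 36 are factor genes. The other 2, Zbtb8os and Zbtb11os1, are loci named after a neighbouring factor gene: Zbtb8os encodes archease, a partner of the tRNA ligase complex, and Zbtb11os1 is an antisense transcript. All 38 passed the filter on low values and entered every test, and they lay on 14 chromosomes. The rule uses the symbol alone.

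The BTB domain pairs 2 factor molecules and recruits corepressor complexes with histone deacetylases, and the zinc fingers pick the DNA site, so most of the family act as repressors. Several members direct lymphocyte fate: Zbtb7b (ThPOK) sets the CD4 lineage, Zbtb16 (PLZF) sets innate-like T cells, Zbtb7a (LRF) acts in B against T cell choice and in germinal centres, and Zbtb1 and Zbtb17 (Miz-1) act in lymphocyte development. In antibody-secreting cells Zbtb20 is known for its part in long-lived plasma cells, and Zbtb32 for restraining memory B cell recall and for repressing Ciita, the MHC class II transactivator, together with Blimp-1.

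The study profiled mouse splenic B lineage cells with and without the H3K9 methyltransferase G9a (gene Ehmt2). KO cells came from G9afl/fl mice that carried 1 Cre allele active in the B lineage, and Ctrl cells from mice with the same Cre allele and no floxed G9a, so every group carried Cre. Naive B cells were obtained from uninfected mice by removing CD43+ cells on beads. Activated B cells (B220+GL7+) and plasma cells (CD138+ with middle or low B220) were sorted, without cells positive for a dead-cell dye, F4/80, Cd11b or Thy1.2, 72 h after 50 µg lipopolysaccharide (LPS, in 100 µl) was injected into the tail vein. Each of the 6 groups had 3 libraries of 1000 cells. The labels do not say that the libraries came from separate mice, so p-values measure the spread between these libraries. Ages were not given.

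Levels are RPKM (reads scaled to gene length and library size) as the authors computed them, brought to a common scale between libraries, and changes are differences of log2(scaled RPKM + 1). A gene was called when its adjusted p from limma, taken over all 12787 tested genes, was under 0.05. Depth, estimated from the spacing of low RPKM values, ran from 1.62 to 4.06 M reads over naive, from 2.67 to 10.8 over activated and from 5.16 to 6.92 over plasma cell libraries. The naive libraries stood apart: the median SD of a gene between replicates was 0.39 in KO and 0.37 in Ctrl, against 0.12 to 0.13 in the activated and plasma cell groups (log2 units). Odorant receptor genes, foreign to B cells, numbered 57 in the deposited table. Their library medians in unscaled RPKM were 1.75 to 5.13 in naive KO, 4.41 to 7.22 in naive Ctrl and at most 1.01 elsewhere. The rule by which a gene counted as detected and entered that table is not given. These genes may have entered it through their naive values. Because 1 fit over all libraries shares the spread of the naive libraries, each result for activated and plasma cells was also computed from the 6 libraries compared. In comparisons with naive cells the shared spread tends to be smaller than that of the libraries compared, so those calls are less certain. Ehmt2 itself had 17.0 ± 5.40 RPKM in naive KO and 19.4 ± 7.31 in naive Ctrl, 22.5 ± 0.82 in activated KO and 22.3 ± 3.15 in activated Ctrl, and 13.8 ± 1.28 in plasma KO and 17.2 ± 0.87 in plasma Ctrl cells (SD, n = 3), a whole-gene level that cannot show the loss of single exons. The defining markers fitted the labels: 6 plasma cell genes (Sdc1, Prdm1, Xbp1, Irf4, Jchain and Tnfrsf17) summed to 7835 to 8798 RPKM in plasma KO and 8501 to 9528 in plasma Ctrl cells, and to at most 846.5 RPKM in any other library.

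Most Zbtb genes were expressed at a low level. The median of the 36 factor genes ran from 4.55 to 5.10 RPKM in naive KO and 4.81 to 5.82 in naive Ctrl libraries, from 3.69 to 4.23 in activated KO and 3.31 to 3.99 in activated Ctrl libraries, and from 3.72 to 4.50 in plasma KO and 3.01 to 3.81 in plasma Ctrl libraries. In every group 29 to 31 of the 36 averaged under 10 RPKM. The top of the order changed with the cell type. Zbtb7a, Zbtb17, Zbtb1, Zbtb2 and Zbtb48 were among the 6 highest in both naive groups, Zbtb32 led both activated groups, and Zbtb38 led both plasma cell groups.

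**Figure D1:**
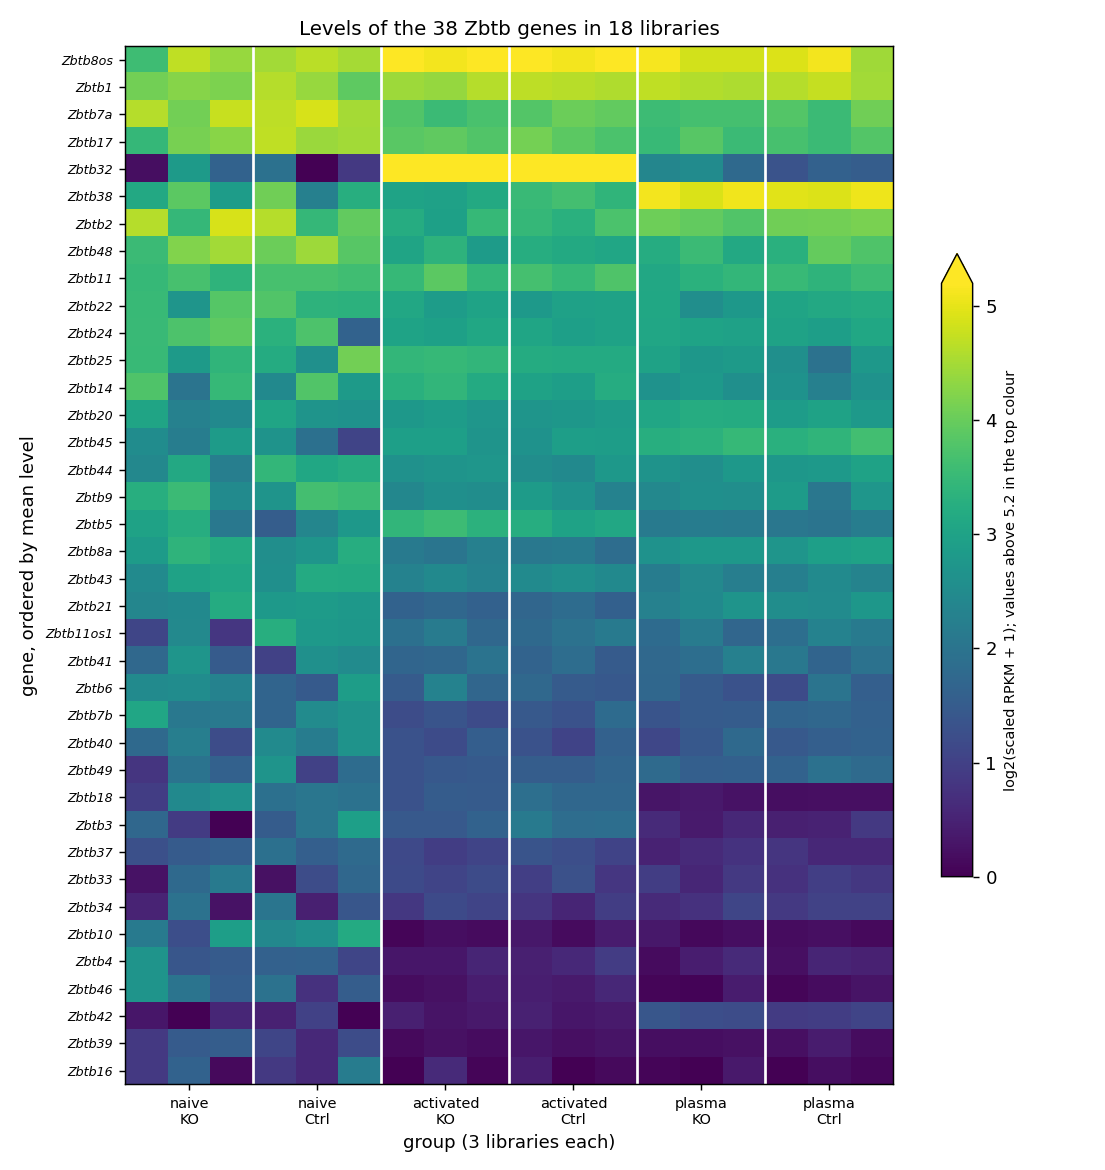
Level of each of the 38 Zbtb genes (rows, ordered by mean) in each of the 18 libraries (columns, grouped by cell type with KO left of Ctrl), as log2(scaled RPKM + 1); values above 5.2 share the top colour. Zbtb32 is at the top colour in the 6 activated libraries, and the naive columns vary most between replicates.

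Zbtb32 set the total. Its summed share of the RPKM of the 36 factor genes was 67.1% ± 1.43 in activated KO and 65.7% ± 0.73 in activated Ctrl cells (SD, n = 3), and at most 2.60% in any naive or plasma cell library. With Zbtb32 the factor genes summed to 529 ± 28.2 RPKM in activated KO and 529 ± 16.9 in activated Ctrl cells. Without it they summed to 174 ± 3.66 in activated KO and 182 ± 2.80 in activated Ctrl cells, below the 239 ± 14.6 of naive KO and 249.5 ± 7.74 of naive Ctrl cells and the 196 ± 1.22 of plasma KO and 205 ± 10.2 of plasma Ctrl cells. No naive or plasma cell library overlapped the activated libraries in either sum.

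**Figure D2:**
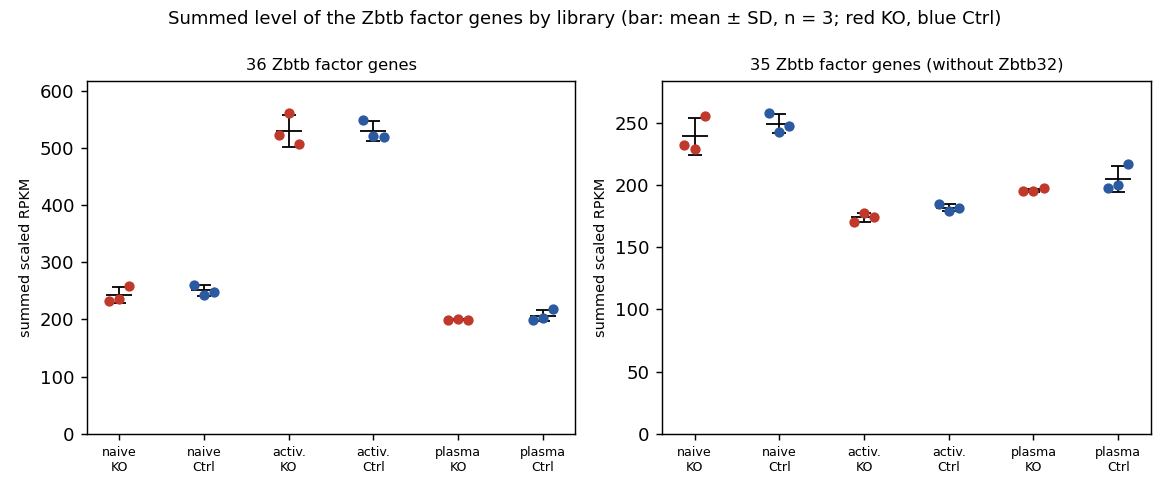
Summed scaled RPKM of the 36 factor genes (left) and of 35 without Zbtb32 (right) in each library; points are libraries (red KO, blue Ctrl) and bars the mean ± SD of 3. The activated libraries are the highest on the left, at 506 RPKM or more, and on the right they are the lowest, at 170 to 184 RPKM.

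In naive cells Zbtb32 measured 0.14, 6.12 and 2.12 RPKM in KO and 2.84, 0 and 0.83 in Ctrl libraries. Activated cells had 351, 383 and 331 RPKM in KO and 364, 342 and 337 in Ctrl libraries. Plasma cells had 4.24, 4.68 and 2.43 RPKM in KO and 1.52, 2.04 and 1.90 in Ctrl libraries. The naive values were scattered over both genotypes, and every activated library exceeded every other library. In bulk samples a change in the number of cells that express a gene and a change in RNA per cell cannot be told apart. A single read of Zbtb32 was worth about 0.10 to 0.26 RPKM in the naive libraries, so the lowest naive values rest on at most a few reads. Activated cells ranked Zbtb32 between places 120 and 147 of 12960 genes by RPKM.

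Zbtb32 was higher in activated than in naive cells by a log2 change of 6.92 in KO (SE 0.48, adjusted p = 2.04e-09) and of 7.51 in Ctrl (SE 0.48, adjusted p = 1.06e-09). It was lower in plasma than in activated cells by -6.25 in KO (adjusted p = 4.63e-09) and -6.95 in Ctrl (adjusted p = 1.02e-09). These are the 4 largest changes of any Zbtb gene in those steps. The KO and Ctrl steps use different libraries. Over the 18 libraries the genes most like Zbtb32 by Pearson's r of log2 values were Nono (0.96), Coro1c (0.955), Gpi1 (0.95), Impdh2 (0.95) and Dkk3 (0.95). The range of Nono was smaller: it averaged 138 RPKM in activated KO and 132 in activated Ctrl cells, against 84.7 in naive KO and 74.6 in naive Ctrl cells. The Zbtb gene most like it was Zbtb5, at 0.73. The libraries of a group share their cell type and sort, so these r are a description.

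Promoter windows were read for the members that fell between activated and plasma cells, to show the sequence in front of genes that move together. RefSeq (GRCm38.p6) gave 47 windows, each from 250 bases before to 50 bases after an annotated start, for 34 of the 38 genes. The windows of Zbtb32 (chr7:30598860-30599159, minus strand), Zbtb5 (chr4:45012363-45012662, minus strand) and Zbtb3 (chr19:8802263-8802562, plus strand) each held 4 CCAAT boxes, the pentamer that NF-Y binds. The CCAAT motif was picked after the Zbtb32 window had been read. Capitals mark CCAAT, or ATTGG where it lies on the other strand.
Zbtb32: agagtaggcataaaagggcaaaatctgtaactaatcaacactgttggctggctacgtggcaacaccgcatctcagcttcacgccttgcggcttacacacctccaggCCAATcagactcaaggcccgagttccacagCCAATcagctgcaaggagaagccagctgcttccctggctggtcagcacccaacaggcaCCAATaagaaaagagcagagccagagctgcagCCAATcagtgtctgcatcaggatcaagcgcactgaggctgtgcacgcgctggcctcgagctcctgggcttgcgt
Zbtb5: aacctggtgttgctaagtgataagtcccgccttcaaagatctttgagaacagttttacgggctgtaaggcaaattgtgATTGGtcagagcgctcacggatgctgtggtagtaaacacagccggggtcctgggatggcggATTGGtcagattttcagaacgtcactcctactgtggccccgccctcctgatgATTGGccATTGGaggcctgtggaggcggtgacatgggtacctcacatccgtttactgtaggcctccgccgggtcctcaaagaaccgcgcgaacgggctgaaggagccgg
Zbtb3: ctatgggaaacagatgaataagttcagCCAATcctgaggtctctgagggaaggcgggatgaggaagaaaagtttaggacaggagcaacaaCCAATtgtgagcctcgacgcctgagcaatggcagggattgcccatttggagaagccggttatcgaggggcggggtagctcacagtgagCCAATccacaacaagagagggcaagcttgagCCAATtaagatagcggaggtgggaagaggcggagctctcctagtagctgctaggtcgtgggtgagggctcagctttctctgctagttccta
The boxes of Zbtb32 began 144, 114, 56 and 24 bases before the start, those of Zbtb5 172, 111, 59 and 52, and those of Zbtb3 223, 160, 72 and 41. A second annotated start of Zbtb32 (chr7:30592893-30593192, minus strand) had a window with 0. At least 1 CCAAT on either strand was found in 13 of the 34 members (38.2%), against 41.1% of 27025 genes with a window, so single boxes were about as common as elsewhere. At least 3 in 1 window were found in 4 of 34 (11.8%), which were Zbtb32, Zbtb5, Zbtb3 and Zbtb9, against 3.88% of all genes. Zbtb32, whose window led to the motif, is counted here. This share and the counts by step that follow are thus a description and no test. Each gene counts by its richest window, and the members had 47 windows for 34 genes, against 32851 for 27025. Among the members called in Ctrl plasma against activated cells, the 5 lower ones held 4 (Zbtb32, Zbtb5, Zbtb3), 2 (Zbtb18) and 0 (Zbtb37) boxes in their richest window, and the 3 higher ones held 2 (Zbtb8a), 1 (Zbtb21) and 0 (Zbtb38). Zbtb9, with 3, was not called in that step. Such matches describe letters in a window and not bound sites.

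Zbtb38, which binds methylated CpG, had 3 windows with no CCAAT, and the densest in CpG is shown as the contrast to those above. It spans chr9:96719801-96720100 on the minus strand, and all its letters are in lower case because no motif was marked.
Zbtb38: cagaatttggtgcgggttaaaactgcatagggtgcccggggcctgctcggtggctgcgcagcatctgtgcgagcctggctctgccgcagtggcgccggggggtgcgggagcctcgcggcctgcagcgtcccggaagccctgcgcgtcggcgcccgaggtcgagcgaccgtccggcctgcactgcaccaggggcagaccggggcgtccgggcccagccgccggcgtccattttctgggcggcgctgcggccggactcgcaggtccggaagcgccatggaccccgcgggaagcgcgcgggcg
This window held 41 CpG and 74.7% G or C, against 10 CpG and 56.0% for the Zbtb32 window. The other windows of Zbtb38 held 25 CpG (69.0% G or C) and 8 CpG (41.0%), so the contrast depends on the window chosen. Of the other members lower in Ctrl plasma than activated cells, the densest windows held 51 CpG (Zbtb18), 23 (Zbtb37), 17 (Zbtb5) and 11 (Zbtb3). Those of the other higher members held 33 (Zbtb21) and 13 (Zbtb8a). Member windows had a median of 25 CpG and 63.3% G or C, and all 32851 windows medians of 7 CpG and 52.7%. Of the other motifs searched on both strands, the interferon regulatory factor element (GAAA, any 2 bases, GAAA) was in 1 member (Zbtb18; 3.99% of all genes), the AP-1 element TGANTCA in 1 (Zbtb46; 8.97%) and the E-box CACGTG in 5 of 34 (14.7%, against 8.09%).

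Between activated and plasma cells, 8 of the 38 members were called in KO (21.1%, against 33.1% of tested genes) and 8 in Ctrl (21.1%, against 32.8%). In KO 4 were higher (background 15.8%) and 4 lower (17.4%). In Ctrl 3 were higher (16.1%) and 5 lower (16.7%). Of these, 7 were called in both genotypes, in the same direction: Zbtb32, Zbtb18, Zbtb3 and Zbtb5 lower, and Zbtb38, Zbtb21 and Zbtb8a higher in plasma cells. From the 6 libraries of each genotype, 15 members were called in KO (background 52.7%) and 15 in Ctrl (50.3%), and the added ones included Zbtb45 and Zbtb2 (higher) and Zbtb25 and Zbtb14 (lower) in both genotypes. Zbtb42, higher in KO with all libraries, was added in Ctrl.

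Zbtb18 (RP58), a repressor best known from neuronal differentiation, had 0.22, 0.28 and 0.20 RPKM in plasma KO and 0.14, 0.15 and 0.16 in plasma Ctrl libraries. In activated cells it had 1.47, 1.87 and 1.82 RPKM in KO and 2.73, 2.33 and 2.33 in Ctrl libraries. Plasma cells lay below every activated library, and the log2 change was -1.14 in KO (adjusted p = 0.007) and -1.59 in Ctrl (adjusted p = 0.000422).  Naive cells had 0.93, 4.51 and 5.17 RPKM in KO and 2.80, 3.14 and 2.89 in Ctrl libraries, so plasma cells were also below naive cells, by -1.71 in KO (adjusted p = 0.000112) and -1.77 in Ctrl (adjusted p = 6.83e-05), a Ctrl change that was -0.81 and not called under quantile normalization (adjusted p = 0.059).

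Zbtb3 had 0.54, 0.29 and 0.50 RPKM in plasma KO and 0.38, 0.42 and 0.81 in plasma Ctrl libraries, against 1.75, 1.74 and 2.12 in activated KO and 3.34, 2.63 and 2.68 in activated Ctrl libraries. Plasma cells did not overlap activated cells in either genotype. The change was -0.99 in KO (adjusted p = 0.042) and -1.34 in Ctrl (adjusted p = 0.007). The KO call was lost under 9 of 14 other settings, with adjusted p up to 0.123.

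Zbtb5, whose human counterpart represses the cell cycle inhibitor gene CDKN1A, peaked in activated cells. It had 6.94, 8.41 and 3.23 RPKM in naive KO and 1.89, 4.22 and 5.82 in naive Ctrl libraries. Activated cells had 9.70, 10.9 and 9.16 in KO and 8.41, 7.03 and 7.67 in Ctrl libraries. Plasma cells had 3.40, 3.54 and 3.46 in KO and 3.17, 2.99 and 3.63 in Ctrl libraries. All 6 plasma cell libraries were below all 6 activated ones, and the activated libraries of each genotype were above its naive ones. Zbtb5 fell in plasma cells by -1.29 in KO (adjusted p = 0.002) and -1.03 in Ctrl (adjusted p = 0.010, and 0.077 under quantile normalization). It rose in activated over naive cells by 0.89 in Ctrl (adjusted p = 0.014). The same step was 0.68 in KO (adjusted p = 0.055).

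Zbtb38 was the highest Zbtb gene of plasma cells. Naive cells had 7.81, 13.8 and 6.34 RPKM in KO and 15.8, 3.81 and 8.59 in Ctrl libraries. Activated cells had 7.08, 6.85 and 7.96 in KO and 10.5, 11.5 and 9.63 in Ctrl libraries. Plasma cells had 33.3, 29.1 and 33.0 in KO and 30.4, 29.6 and 32.6 in Ctrl libraries. The 6 plasma cell libraries stood above the other 12 without overlap. Against activated cells, Zbtb38 rose by 1.98 in KO (SE 0.31, adjusted p = 5.2e-05) and 1.47 in Ctrl (SE 0.31, adjusted p = 0.001), and these calls held under all 15 other settings. Against naive cells it rose by 1.73 in KO (adjusted p = 0.000126) and 1.79 in Ctrl (adjusted p = 7.71e-05).

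Zbtb21 and Zbtb8a dipped in activated cells. Zbtb21 averaged 5.66 ± 2.22 RPKM in naive KO and 5.996 ± 0.19 in naive Ctrl, 2.17 ± 0.15 in activated KO and 2.29 ± 0.27 in activated Ctrl, and 4.63 ± 0.77 in plasma KO and 5.11 ± 0.57 in plasma Ctrl cells (SD, n = 3). Its single libraries ran from 4.22 to 8.22 in naive KO, 5.83 to 6.21 in naive Ctrl, 2.07 to 2.35 in activated KO, 2.02 to 2.56 in activated Ctrl, 3.89 to 5.43 in plasma KO and 4.73 to 5.76 in plasma Ctrl cells. The activated libraries were below all others. Zbtb21 fell in activated against naive cells by -1.03 in KO (adjusted p = 0.00075) and -1.09 in Ctrl (adjusted p = 0.000416), and rose in plasma against activated cells by 0.82 in KO (adjusted p = 0.006) and 0.89 in Ctrl (adjusted p = 0.003). Zbtb8a had 3.44, 3.08 and 3.78 RPKM in activated KO and 3.23, 3.42 and 2.62 in activated Ctrl libraries, and all naive and plasma cell libraries held 4.96 RPKM or more. It fell in activated against naive cells by -0.99 in KO and -0.82 in Ctrl (adjusted p = 0.000628 and 0.003 in that order), and rose in plasma against activated cells by 0.58 in KO (adjusted p = 0.036) and 0.85 in Ctrl (adjusted p = 0.003). The KO call of that last step was lost under 9 of 15 other settings, with adjusted p up to 0.119. Zbtb37 was lower in plasma than in activated Ctrl cells by -0.56 (adjusted p = 0.032, up to 0.206 under other settings). Its plasma values were 0.41, 0.55 and 0.71 RPKM in KO and 0.75, 0.49 and 0.50 in Ctrl libraries, against 1.22, 0.92 and 1.09 in activated KO and 1.54, 1.39 and 1.08 in activated Ctrl libraries.

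**Figure D3:**
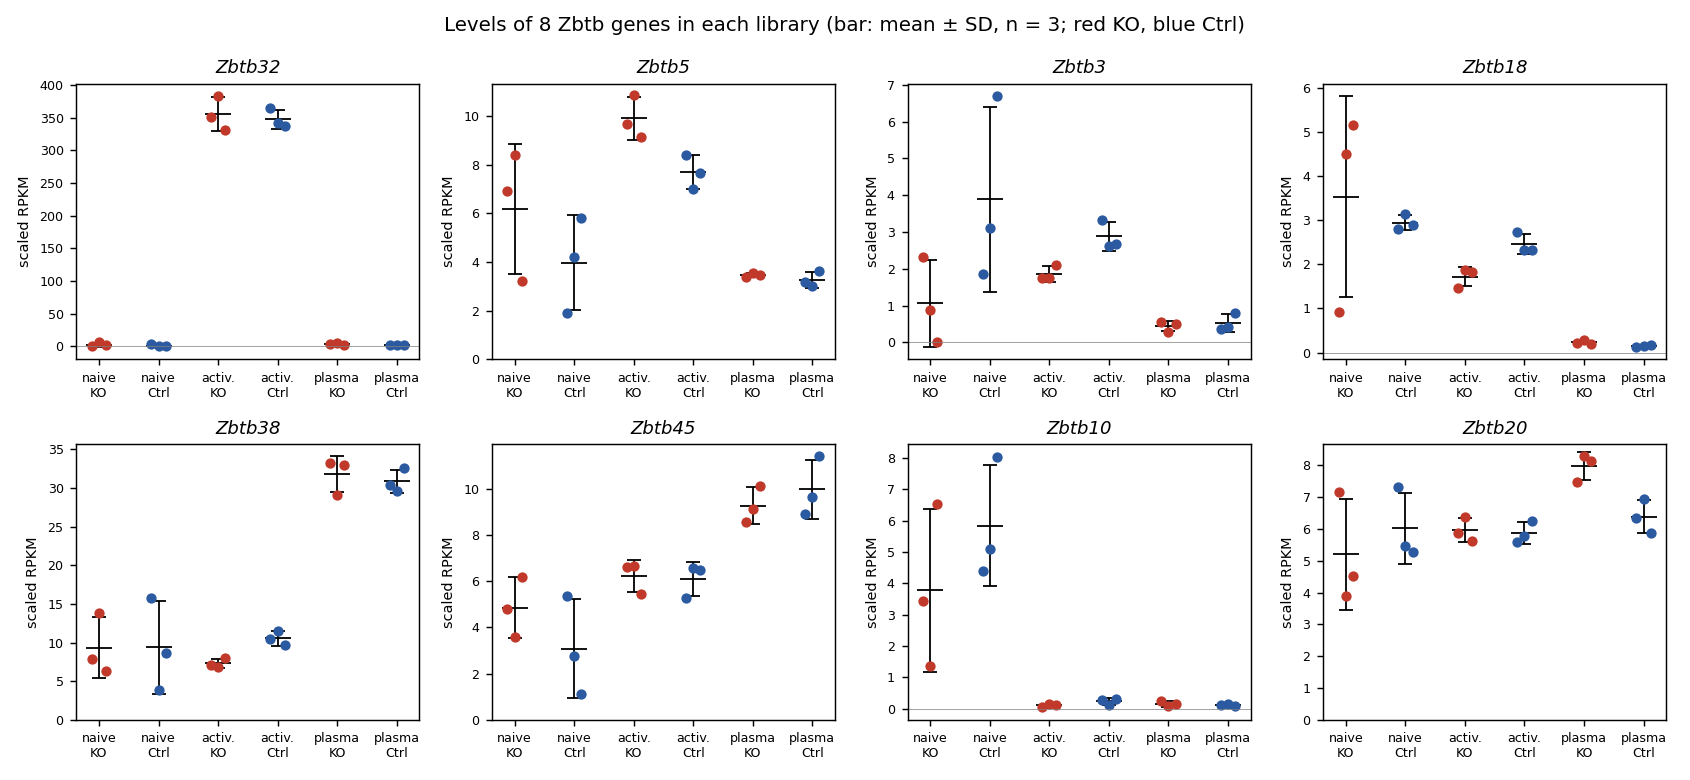
Scaled RPKM (linear axes that include 0) of 8 Zbtb genes in each library; points are libraries (red KO, left of blue Ctrl, within each cell type) and bars the mean ± SD of 3. Zbtb32 is at 331 to 383 RPKM in activated cells, Zbtb38 is highest in plasma cells at 29.1 to 33.3 RPKM, Zbtb10 exceeds 0.32 RPKM in the naive libraries alone, and the plasma KO libraries of Zbtb20 lie above the plasma Ctrl ones.

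Zbtb20 had a level that changed little. Naive cells had 7.18, 3.90 and 4.52 RPKM in KO and 7.31, 5.46 and 5.29 in Ctrl libraries. Activated cells had 5.88, 6.37 and 5.62 in KO and 5.59, 5.77 and 6.25 in Ctrl libraries. Plasma cells had 7.47, 8.31 and 8.14 in KO and 6.35, 6.93 and 5.88 in Ctrl libraries. The 3 plasma KO libraries were the highest of the 18, and the naive and activated groups of both genotypes overlapped. In Ctrl cells the log2 change was -0.02 in activated against naive cells (adjusted p = 0.933), 0.10 in plasma against activated cells (adjusted p = 0.816) and 0.08 in plasma against naive cells (adjusted p = 0.723). In KO cells plasma against naive cells was 0.57 (adjusted p = 0.019), a call lost under 6 of 14 other settings with adjusted p up to 0.111. In KO plasma against activated cells the change was 0.37 (adjusted p = 0.184), and from those 6 libraries alone the adjusted p was 0.015.

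RPKM divides by gene length, and the annotated exons of Zbtb20 cover 30730 bases, against 2357 for Zbtb32, so its level per kilobase depends on which of its long exons the authors counted. By Pearson's r over the 18 libraries the genes most like Zbtb20 were Acad8 (0.82), Spr (0.81), Mettl15 (0.80), Tm9sf4 (0.79) and Cth (0.79), and the Zbtb gene most like it was Zbtb42 (0.61). Zbtb42 had 1.64, 1.37 and 1.31 RPKM in plasma KO and 0.88, 0.93 and 1.11 in plasma Ctrl libraries, and at most 1.00 in any naive or activated library.

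Against naive cells most called members were lower. Zbtb4, Zbtb10, Zbtb16, Zbtb39 and Zbtb46 passed the filter of 1 RPKM through naive groups alone, so the filter itself favours lower calls for them. All tested genes passed the same filter. In activated against naive cells, 12 of 38 members were called in KO (31.6%, against 55.7% of tested genes), 2 higher (background 21.2%) and 10 lower (34.5%). In Ctrl 19 were called (50.0%, against 58.4%), 4 higher (19.0%) and 15 lower (39.4%). In plasma against naive cells 17 were called in KO (44.7%, against 61.9%), 6 higher (24.7%) and 11 lower (37.1%), and 17 in Ctrl (44.7%, against 68.7%), 2 higher (24.3%) and 15 lower (44.4%). Of the 12 and 19 members called in activated against naive cells, 11 were in both lists, and of the 17 and 17 in plasma against naive cells, 10 were. All genes tested had a median log2 change of -0.26 in KO and -0.29 in Ctrl for activated against naive cells and -0.27 in KO and -0.37 in Ctrl for plasma against naive cells, and the members had medians of -0.30, -0.48, -0.40 and -0.41 for the same 4 comparisons. Quantile normalization brought the median of all genes to -0.08 or closer to 0 in these 4 comparisons, and the members called then split into 4 higher and 7 lower in KO activated, 4 and 6 in Ctrl activated, 6 and 6 in KO plasma and 4 and 3 in Ctrl plasma cells. Over all tested genes it called 5504 in KO activated, 5550 in Ctrl activated, 6427 in KO plasma and 6854 in Ctrl plasma cells. With median-of-ratios scaling these were 7127, 7465, 7914 and 8788. Among all tested genes the share of calls that were higher then became 48.5% to 50.0%, against 32.5% to 40.0% with median-of-ratios scaling.

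The naive libraries that define these steps also carried more RNA of other cells. The 2 of 6 erythroid markers in the table summed to 267 to 495 RPKM in naive KO and 284 to 374 in naive Ctrl libraries, against at most 45.4 elsewhere. The 3 of 5 platelet markers in the table summed to 40.9 to 72.7 in naive KO and 46.8 to 105 in naive Ctrl libraries, against at most 3.35 elsewhere. The part of such RNA in the lower calls was not tested.

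Zbtb10 had at most 0.32 RPKM in any activated or plasma cell library, against 3.44, 1.37 and 6.54 in naive KO and 4.39, 5.08 and 8.04 in naive Ctrl libraries. All naive libraries stood above all others. Zbtb10 fell in activated against naive cells by -1.96 in KO (adjusted p = 3.72e-05) and -2.44 in Ctrl (adjusted p = 4.13e-06), and in plasma against naive cells by -1.89 in KO and -2.56 in Ctrl (adjusted p = 3.66e-05 and 9.47e-07 in that order). These 4 calls held under all 14 other settings.

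Zbtb46, a marker of classical dendritic cells, had at most 0.50 RPKM in activated and plasma cells, against 5.42, 2.98 and 1.92 in naive KO and 2.91, 0.67 and 1.91 in naive Ctrl libraries. It fell in activated against naive cells by -1.81 in KO (adjusted p = 5.56e-05) and -0.95 in Ctrl (adjusted p = 0.010), a Ctrl change that was 0.01 under quantile normalization. Zbtb16 had at most 0.55 RPKM in activated and plasma cells, against 0.81, 2.12 and 0.09 in naive KO and 0.81, 0.52 and 3.54 in naive Ctrl libraries. Activated and plasma cells were below naive cells without overlap in Ctrl but not in KO, and the 2 Ctrl steps were called, at -1.03 for activated (adjusted p = 0.024) and -1.12 for plasma against naive cells (adjusted p = 0.012), the first of them lost under 7 of 13 other settings. Zbtb7b averaged 1.38 ± 0.16 RPKM in activated KO and 1.92 ± 0.54 in activated Ctrl, against 4.66 ± 2.39 in naive KO and 4.07 ± 1.66 in naive Ctrl cells (SD, n = 3), and fell by -1.17 in KO (adjusted p = 0.002) and -0.75 in Ctrl (adjusted p = 0.030).

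Zbtb7a fell in activated against naive cells by -0.82 in KO (adjusted p = 0.001) and -0.77 in Ctrl (adjusted p = 0.002), at 11.8 ± 1.04 RPKM in activated KO and 14.2 ± 1.23 in activated Ctrl, against 22.1 ± 5.31 in naive KO and 25.0 ± 3.52 in naive Ctrl cells. Zbtb17 fell only by the Ctrl test, by -0.63 (adjusted p = 0.009), at 14.1 ± 2.01 RPKM in activated and 22.3 ± 2.47 in naive Ctrl cells, and the KO values of 13.5 ± 0.71 in activated and 15.0 ± 4.41 in naive cells were not called apart. Zbtb40 measured 1.46, 1.29 and 1.93 RPKM in activated KO and 1.49, 1.06 and 2.08 in activated Ctrl libraries, against 2.41, 3.66 and 1.31 in naive KO and 4.65, 3.55 and 5.35 in naive Ctrl libraries. It fell in activated against naive Ctrl cells by -1.12 (adjusted p = 0.002). The antisense transcript Zbtb11os1 fell in the same Ctrl step by -0.99 (adjusted p = 0.014), at 2.40, 2.87 and 3.40 RPKM in activated libraries, against 8.55, 6.04 and 5.71 in naive libraries, without overlap. Zbtb37, named above, and Zbtb3 were lower in plasma than in naive Ctrl cells, by -1.11 (adjusted p = 7.72e-05) and -1.56 (adjusted p = 0.000986). Under quantile normalization neither was called, and the changes were 0.001 for Zbtb37 and -0.70 for Zbtb3. Zbtb48 (TZAP), a telomere-binding member, fell in activated against naive cells by -0.999 in KO (adjusted p = 0.002) and -0.95 in Ctrl (adjusted p = 0.003). Zbtb1, which guards lymphoid progenitors, kept a level of 14.05 RPKM or more in every library and reached a call only in KO plasma against naive cells (0.45, adjusted p = 0.018).

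Few members were higher than in naive cells. Zbtb45 had 4.78, 3.60 and 6.20 RPKM in naive KO and 5.36, 2.77 and 1.10 in naive Ctrl libraries. It had 6.61, 6.65 and 5.45 in activated KO and 5.26, 6.59 and 6.48 in activated Ctrl libraries, and 8.57, 9.13 and 10.1 in plasma KO and 8.90, 9.64 and 11.4 in plasma Ctrl libraries. All 6 plasma cell libraries were above the other 12, and plasma exceeded naive cells by 0.83 in KO (adjusted p = 0.019) and 1.57 in Ctrl (adjusted p = 0.000135). The Ctrl activated step was also called (0.94, adjusted p = 0.010), although 1 naive Ctrl library overlapped the activated ones. That call was lost from the libraries compared alone and without naive Ctrl replicate 3, with adjusted p up to 0.071. Zbtb8os had 38.3, 33.5 and 39.99 RPKM in activated KO and 37.9, 33.6 and 40.6 in activated Ctrl libraries, against 11.1, 25.1 and 19.97 in naive KO and 21.4, 24.3 and 21.7 in naive Ctrl libraries, with no overlap, and rose by 1.03 in KO (adjusted p = 0.000713) and 0.71 in Ctrl (adjusted p = 0.010).

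KO and Ctrl cells were called apart for few Zbtb genes. In naive cells 2 of 38 members were called (5.3%, against 7.23% of tested genes), both lower in KO (background 5.12%). Under quantile normalization 1 member was called higher and 1 lower, and Zbtb3 was no longer called (adjusted p = 0.106). Over all tested genes 795 were then called, against 924, and 52.3% of the calls were higher in KO, against 29.1%. Zbtb11os1 had 1.13, 4.45 and 0.78 RPKM in naive KO and 8.55, 6.04 and 5.71 in naive Ctrl libraries. Zbtb3 had 2.32, 0.87 and 0 RPKM in naive KO and 1.86, 3.12 and 6.69 in naive Ctrl libraries. Every KO library of Zbtb11os1 was below every Ctrl library, and Zbtb3 overlapped. Libraries did not overlap for 3 members, Zbtb11os1, Zbtb17 and Zbtb37, all lower in KO, against 12.2% of tested genes in either direction. The log2 change of Zbtb11os1 was -1.48 (SE 0.32, adjusted p = 0.011) and that of Zbtb3 -1.29 (SE 0.36, adjusted p = 0.038). From the 6 naive libraries alone the adjusted p was 0.680 for Zbtb11os1 and 0.698 for Zbtb3, and 0 of the 12787 genes were called (0.00%). Without naive Ctrl replicate 3 only 1 member was called, without naive Ctrl replicate 2 there were 4, and without naive KO replicate 2 there were 6. The share of all tested genes called in these fits is not given, so these moves cannot be told from a general change in calls.

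In activated cells 0 of 38 members were called by limma (1.78% of tested genes were), and 0 had an unadjusted p under 0.05. From the 6 activated libraries alone 1 member was called, Zbtb38 (background 11.3%, lower 6.02%). Without the naive libraries it was also the 1 call (background 14.5%, lower 7.62%), a setting chosen after seeing the data, and with library weights it was called with Zbtb18 and Zbtb3 (background 19.1%, lower 10.2%). The activated values of Zbtb38 given above put every KO library below every Ctrl library. The log2 change was -0.48 (95% interval -1.14 to 0.18, adjusted p = 0.777), and with the 6 libraries the interval was -0.73 to -0.23 and the adjusted p 0.024. Altogether 8 members had KO and Ctrl libraries that did not overlap, against 31.3% of tested genes: Zbtb25 and Zbtb5 were above in KO, and Zbtb38, Zbtb18, Zbtb3, Zbtb43, Zbtb49 and Zbtb7a below. Zbtb18 and Zbtb3 differed by -0.35 and -0.43, with adjusted p = 0.129 and 0.072 from the 6 libraries, and Zbtb5 by 0.33 (adjusted p = 0.096). Zbtb32 differed by 0.03, with an interval of -0.98 to 1.04 over all libraries and of -0.15 to 0.21 over the activated ones, and Zbtb20 by 0.02 (interval -0.40 to 0.43). The interval of Zbtb32 over all libraries takes in the scatter of its naive values.

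The activated groups differed in their marker levels as well. The 6 plasma cell markers summed to 337 to 436 RPKM in activated KO and 754 to 846 in activated Ctrl libraries. Xbp1 and Jchain carried the sum, with means of 209.5 and 126.8 RPKM in KO and 405.8 and 328.4 in Ctrl. They were the only markers of that list called. Prdm1 and Sdc1 were lower in KO but not called. Irf4 was near level, at 41.3 in KO and 44.3 in Ctrl, and Tnfrsf17 had 0.55 and 0.45. Cd79a and Cd79b, the signalling chains of the B cell receptor, were lower in activated KO by -0.56 and -0.58 (adjusted p = 0.003 each). The erythroid markers summed to 14.7 to 23.0 RPKM in activated KO and 4.02 to 4.98 in activated Ctrl libraries. Hbb-bs carried that sum, at 19.05 in KO and 3.97 in Ctrl, while Hba-a2 was lower in KO, at 0.15 and 0.47. The T cell markers summed to 10.8 to 12.8 in KO and 6.40 to 7.41 in Ctrl, mostly from Lck (11.03 and 6.79). The 1 of 6 NK cell markers in the table had 2.87 to 4.49 in KO and 1.11 to 1.19 in Ctrl. Platelet markers went the other way, at 0.14 to 0.33 in KO and 1.24 to 1.37 in Ctrl. None of these markers was called. The 5 of 6 monocyte or macrophage markers overlapped (26.6 to 54.7 in activated KO, 31.9 to 35.7 in activated Ctrl), and the 1 of 5 neutrophil markers was at most 1.63 RPKM in KO and 0.41 in Ctrl. Among the Zbtb genes that were higher in plasma than in activated cells, Zbtb38 was the one below Ctrl in all activated KO libraries. The part of these markers' cells in its difference was not tested.

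In plasma cells 0 of 38 members were called by limma (0.610% of tested genes were), 0 had an unadjusted p under 0.05, and 0 were called from the 6 plasma cell libraries alone (background 5.11%). The KO and Ctrl libraries did not overlap for 6 members, against 24.8% of tested genes: Zbtb32, Zbtb20, Zbtb42 and Zbtb18 were above in KO, and Zbtb2 and Zbtb7b below. Zbtb32 averaged 3.78 ± 1.20 RPKM in plasma KO and 1.82 ± 0.27 in plasma Ctrl cells (SD, n = 3). The change was 0.73 (95% interval -0.27 to 1.74, adjusted p = 1.000). With the 6 plasma cell libraries the interval was 0.29 to 1.18 and the adjusted p 0.069, and with the 12 activated and plasma cell libraries in 1 fit, the adjusted p was 0.0078 and Zbtb32 was the 1 member called (background 6.16%, higher 3.15%). With library weights Zbtb32 (0.88, adjusted p = 0.0015) and Zbtb42 (0.38, adjusted p = 0.021) were called (background 12.8%, higher 6.30%). Zbtb20 differed by 0.28 (interval -0.14 to 0.70, adjusted p = 1.000, and 0.211 from the 6 libraries).

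Some markers differed in plasma cells too. The 3 of 9 T cell markers in the table summed to 8.17 to 12.2 RPKM in plasma KO and 1.31 to 2.19 in plasma Ctrl libraries. Cd3e carried that sum, at 8.71 ± 1.49 RPKM in plasma KO and 0.08 ± 0.07 in plasma Ctrl cells (SD, n = 3), while Cd4 and Lck differed by -0.01 and -0.03 and were not called. The B cell receptor gene Cd79a had 437 ± 32.8 RPKM in plasma KO and 775 ± 102 in plasma Ctrl cells and fell by -0.82 (adjusted p = 6.53e-05). Their part in the Zbtb32 values was not tested.

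The KO effect was compared between cell types in the same fit. No member was called for activated minus naive (0 of 38, background 2.62%), plasma minus activated (0 of 38, background 0.156%) or plasma minus naive cells (0 of 38, background 1.38%) by limma. At an unadjusted p under 0.05 there were 2, 0 and 2 members in that order. The share of all tested genes at that threshold is not given, here or above, so such counts are no result about the members. The members called in a step in 1 genotype only were thus not shown to differ between genotypes.

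**Figure D4:**
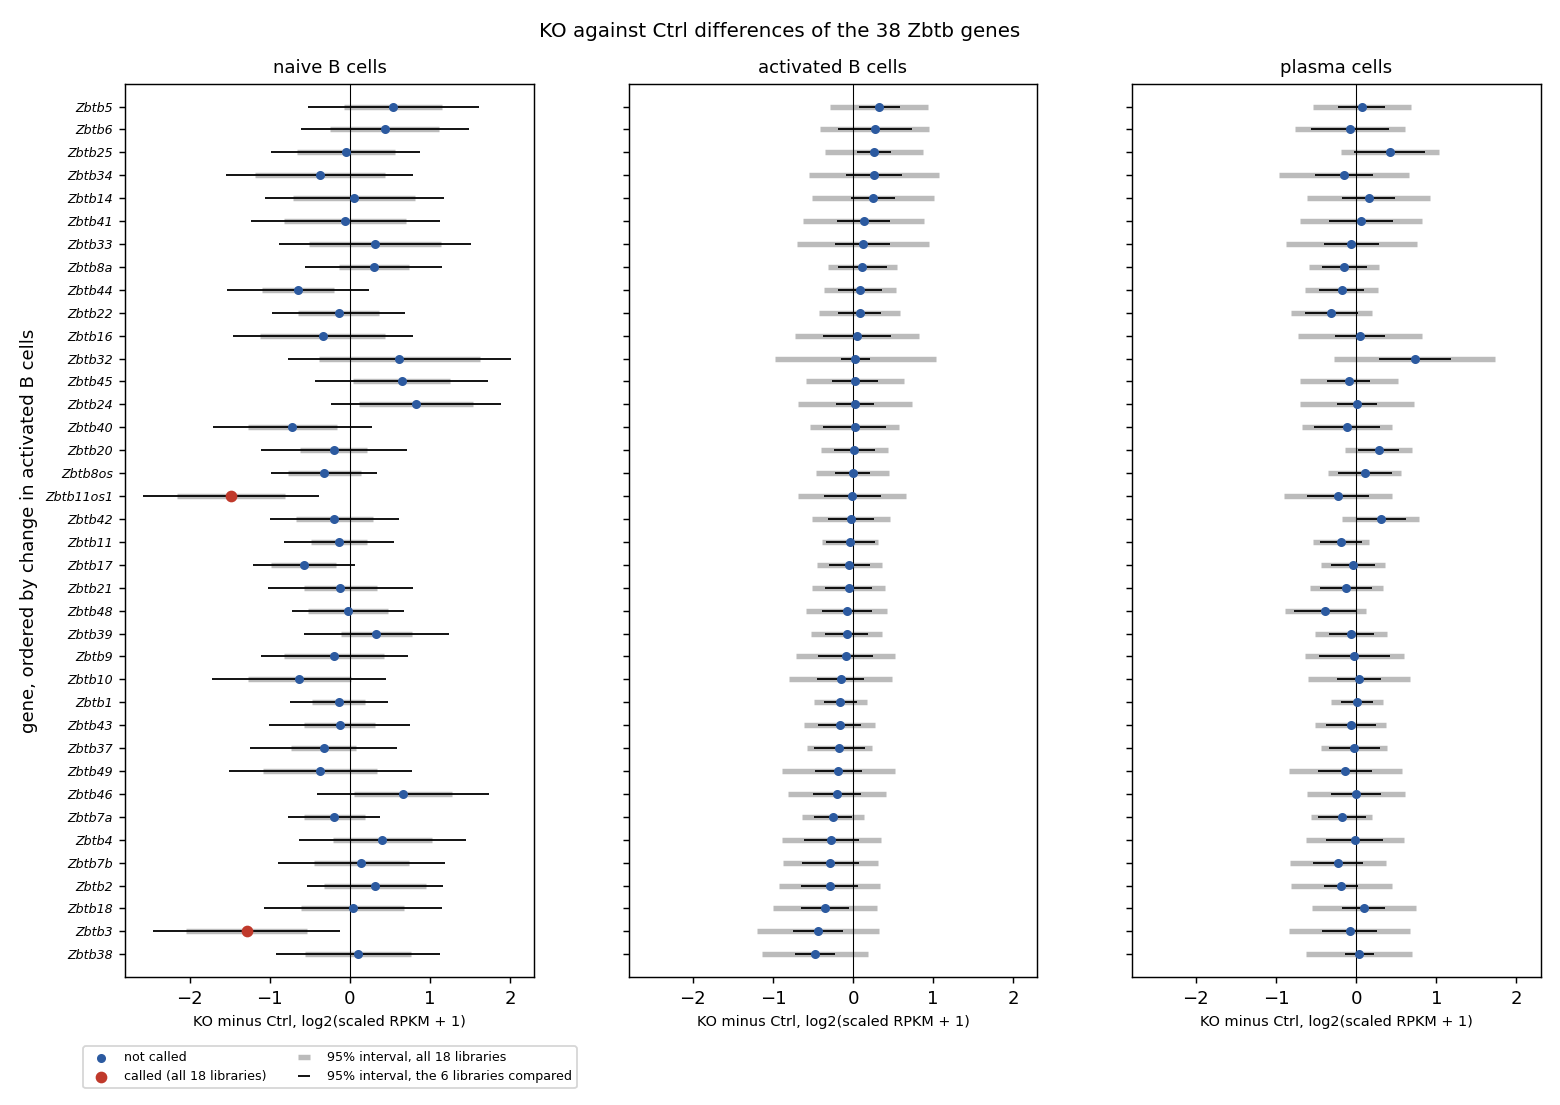
KO minus Ctrl difference of the 38 Zbtb genes on the log2(scaled RPKM + 1) scale in naive, activated and plasma cells; points are estimates, wide grey bars the 95% interval from all 18 libraries and thin black bars that from the 6 libraries compared. Only Zbtb11os1 and Zbtb3 in naive cells are called (red), where the thin bars are longest, and in activated and plasma cells the thin bars are the shorter ones.

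A few members lie next to each other. Zbtb11os1 (chr16:55973268-55974617, minus strand) overlaps Zbtb11 on the other strand by 735 bases, and Zbtb8os and Zbtb8a (chr4:129353628-129378116, minus strand) overlap by 920 bases. Whether counting used strand is not given in the sources used here, so reads in an overlap cannot be assigned between partners. The overlap takes in 735 of the 1350 annotated bases of Zbtb11os1, so its naive KO call and its step changes carry this limit. The values of the partners differed: Zbtb11 had 10.2, 11.96 and 9.36 RPKM in naive KO and 11.96, 11.8 and 11.1 in naive Ctrl libraries, and Zbtb8os rose in activated over naive cells where Zbtb8a fell. Zbtb25 and Zbtb1 start 663 bases apart on chromosome 12 and point away from each other. Zbtb25, known as a repressor of NFAT targets in T cells, had 9.87, 10.1 and 9.77 RPKM in activated KO and 8.17, 8.10 and 7.997 in activated Ctrl libraries without overlap, whereas Zbtb1 had 20.8, 19.8 and 23.6 in activated KO and 24.7, 24.0 and 23.1 in activated Ctrl libraries.

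Of 8 close relatives with other symbols, 7 were tested, and 0 were called in any KO against Ctrl comparison. Of all tested genes 7.23% were called in naive, 1.78% in activated and 0.610% in plasma cells. At such shares 0 calls in a list this short cannot show that its genes were unaffected. Bcl6, the repressor that defines germinal centre B cells, had 26.9 ± 10.6 RPKM in naive KO and 30.2 ± 2.19 in naive Ctrl, 2.06 ± 0.25 in activated KO and 2.43 ± 0.85 in activated Ctrl, and 0.40 ± 0.24 in plasma KO and 0.55 ± 0.31 in plasma Ctrl cells (SD, n = 3). It fell in activated against naive cells by -3.11 in KO and -3.22 in Ctrl (adjusted p = 5.75e-08 and 5.28e-08 in that order), and again in plasma against activated cells by -1.14 in KO and -1.13 in Ctrl (adjusted p = 0.004 each).  Patz1 fell in plasma against activated cells by -0.90 in KO (adjusted p = 0.010) and -1.02 in Ctrl (adjusted p = 0.004).

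Of 14 listed corepressor and adaptor genes that BTB factors use, 13 were tested and 0 were called in any KO against Ctrl comparison. The shares of all tested genes were 7.23% in naive, 1.78% in activated and 0.610% in plasma cells, so this list is also too short to show no effect. Hdac1, a histone deacetylase of these complexes, had 89.9 ± 11.5 RPKM in naive KO and 85.6 ± 9.35 in naive Ctrl, 158 ± 15.9 in activated KO and 148 ± 7.58 in activated Ctrl, and 56.1 ± 2.55 in plasma KO and 52.6 ± 2.06 in plasma Ctrl cells. It fell in plasma against activated cells by -1.48 in KO and -1.48 in Ctrl (adjusted p = 2.72e-09 and 2.62e-09 in that order). In that step 1 of the 13 rose and 5 fell in KO, and 1 rose and 2 fell in Ctrl, with list medians of -0.18 in KO and -0.18 in Ctrl, against -0.02 and -0.03 for all genes. Over all tested genes 15.8% rose and 17.4% fell in KO, and 16.1% rose and 16.7% fell in Ctrl.

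Genes tied to Zbtb factors in lymphocytes were 19, of which 18 were tested. Ciita, which Zbtb32 is known to repress with Blimp-1, had 71.3 ± 1.96 RPKM in naive KO and 74.1 ± 18.5 in naive Ctrl, 29.1 ± 2.13 in activated KO and 36.5 ± 2.97 in activated Ctrl, and 0.54 ± 0.17 in plasma KO and 0.30 ± 0.12 in plasma Ctrl cells. Ciita fell in activated against naive cells by -1.27 in KO and -0.97 in Ctrl (adjusted p = 6.7e-06 and 0.000121 in that order) and in plasma against activated cells by -4.29 in KO and -4.86 in Ctrl (adjusted p = 5.83e-13 and 9.94e-14). In plasma cells both Zbtb32 and Ciita were below their activated levels. Prdm1 (Blimp-1) had 17.2 ± 3.85 RPKM in activated KO and 31.5 ± 5.43 in activated Ctrl cells, and 99.0 ± 4.99 in plasma KO and 103 ± 5.29 in plasma Ctrl cells. Against Ctrl, called members of this list were Cdca7l in naive KO (1.12, adjusted p = 0.011), Xbp1 in activated KO (-0.97, adjusted p = 0.002) and, in plasma KO, Myc (0.75, adjusted p = 0.008), H2-Aa (-0.45, adjusted p = 0.026) and H2-Eb1 (-0.48, adjusted p = 0.031). These are 1, 1 and 3 of 18 genes, beside 7.23%, 1.78% and 0.610% of all tested genes in the same 3 comparisons. The medians of the list were 0.06 in naive, -0.25 in activated and -0.04 in plasma cells, against -0.09, -0.02 and 0.00 for all genes.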

How the data were processed

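SMART-seq v4 cDNA and Nextera XT libraries were made from 1000 cells each, per the labels. The authors deposited 1 table of RPKM values for 12960 genes in 18 libraries. Alignment used STAR and the build was mm10, per the submitters' processing notes. No source used here names the counter, the annotation, the gene lengths or the use of strand. Symbols that were missing or written as dates (20) were restored from the gene IDs.

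Each library was scaled by median of ratios (factors 0.903 to 1.07, from 8012 genes that exceeded 1 RPKM in each of the 18) and transformed as log2(scaled RPKM + 1), which understates changes of low genes. Genes reaching a mean of 1 RPKM in at least 1 group were tested (12787, leaving out 173). limma 3.58.1 (R 4.3.3) fitted the 6 group means over all libraries with a trended variance prior, two-sided, with Benjamini-Hochberg adjustment over all tested genes in each of 12 contrasts. Intervals of 95% come from that fit, and the steps were tested on simulated data. Alternatives were the 6 libraries compared alone, a pseudocount of 0.1, unscaled RPKM, quantile normalization, no filter or a filter at 5 RPKM, library weights, a replicate block, leaving out each library and, chosen after seeing the data, leaving out the naive libraries. Depth was estimated from the spacing of low RPKM values multiplied by exon length (GENCODE M21). RPKM carry no counts, so no counting interval is given.

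Named with full values were members called in a KO contrast, Zbtb32, Zbtb20 and, in each Ctrl step, up to 6 called members per direction with the largest change and no overlap between groups. Zbtb38, Zbtb18, Zbtb3, Zbtb5 and Zbtb49 in activated KO cells, Zbtb42, and the neighbours were described after their values were seen. Sums over 2 of the marker lists are not reported here. The members and gene lists were chosen with earlier results of these data known.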

Additional observations from a re-analysis of the deposited data

How the results depend on the processing

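Of 855 repeats of 61 member changes under other settings, 762 kept their call and direction, 79 lost a call, 7 gained one and 7 reversed. In naive KO against Ctrl cells the 2 calls became 0 from the 6 libraries compared, where 0.00% of all tested genes were called. They became 1 with a pseudocount of 0.1, 1 with a filter at 5 RPKM and 0 with library weights. When single libraries were left out they became 1 to 6. Shares of all tested genes are not given for these further settings, so those moves cannot be told from a general change. In activated KO against Ctrl cells 0 became 1 (6 libraries), 3 (library weights: Zbtb38, Zbtb18 and Zbtb3, background 19.1%) and 1 (no naive libraries, chosen after seeing the data, background 14.5%). In plasma KO against Ctrl cells 0 became 2 (weights: Zbtb32 and Zbtb42, background 12.8%) and 1 (no naive libraries). For the KO effect, plasma minus activated gave 1 with weights. Leaving out libraries gave 0 to 2 for activated minus naive and 0 to 1 for plasma minus naive. In both cases the calls came from leaving out naive KO replicate 2. Shares of all tested genes in these KO effect fits are not given either.

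In KO plasma against activated cells 8 became 15 (6 libraries), 5 (filter at 5 RPKM), 18 (weights), 14 (no naive libraries) and 6 to 6 without single libraries. In Ctrl 8 became 15 (6 libraries), 16 (weights), 15 (no naive libraries) and 7 to 9. In Ctrl activated against naive cells 19 became 15 (6 libraries), 10 (quantile), 12 (filter at 5 RPKM) and 15 to 19. In Ctrl plasma against naive cells 17 became 14 (6 libraries), 7 (quantile), 9 (filter at 5 RPKM) and 15 to 18. In KO 17 became 15 (6 libraries), 9 (filter at 5 RPKM) and 13 to 20. In KO activated against naive cells 12 became 13 (6 libraries) and 12 to 17. A filter at 5 RPKM tests fewer members. Calls over all tested genes moved too. With the 6 libraries they went from 33.1% to 52.7% in KO and from 32.8% to 50.3% in Ctrl plasma against activated cells. Under quantile normalization they went from 7465 to 5550 genes in Ctrl activated and from 8788 to 6854 in Ctrl plasma against naive cells. Shares under the other settings, and from the 6 libraries in steps against naive cells, are not given. Member moves there cannot be told from general ones. The cause of the moves was not tested.

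Reversed under quantile normalization were Zbtb37 (0.40) and Zbtb46 (0.009) in Ctrl activated against naive cells and Zbtb37 in Ctrl plasma against naive cells (0.001). The uncalled activated KO difference of Zbtb32 was -0.03 with weights and ran from -0.026 (without activated KO replicate 3) to 0.078 without single libraries, and that of Zbtb20 ran from -0.024 (without activated KO replicate 3; -0.011 without activated Ctrl replicate 1) to 0.057. Without scaling the median of all genes in Ctrl plasma against activated cells was -0.14, against -0.03, and 34.1% of calls were higher, against 49.0%; in KO plasma against activated cells it was -0.10, against -0.02, with 36.7% and 47.6%.

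Same-numbered libraries did not deviate together throughout (correlations from -0.212 to 0.312). In plasma cells each same-numbered KO and Ctrl pair (0.068, 0.195 and 0.312) exceeded the highest correlation with another number (0.022, 0.095 and -0.134). In naive cells no pair did, and in activated cells replicate 4 alone did (0.07 against -0.031). Between plasma and activated cells of the same genotype, KO replicate 1 did (0.055 against -0.019). Ctrl replicates 3 (0.122 against -0.016) and 4 (0.154 against 0.153) did as well. KO replicates 3 and 4 and Ctrl replicate 1 did not. The labels do not say that the numbers pair samples, so they were used only in the replicate block. With the replicate block naive KO against Ctrl cells gave 1 call, and activated and plasma cells 0. Leaving out 1 library left 2 in its group, whose spread the fit pooled with the other groups. Low naive depth and 3 libraries a group limit what changes of low members could be seen.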
